A study of Lobaria pulmonaria with 11 samples.

Results

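The mycobiont, the fungal partner of the tree lungwort lichen Lobaria pulmonaria, was compared between the 11th and the 2nd day of daily ultraviolet-B (UV-B) exposure. The comparison took 3 day 11 and 3 day 2 libraries of the 11 in the series, grouped by their labels. Earlier results of these data were known when the comparison was chosen. Thalli collected from aspen trunks were dried, frozen, rehydrated and kept wet in a climate chamber at 15 °C and 40% relative humidity. Photosynthetically active light of 80 umol/m2/s was given for 12 h a day. The thalli were irradiated with UV-B at 3 W/m2 for 80 min a day in a course planned for 14 days. The daily dose was 14.4 kJ/m2, recorded as 3-fold that of the habitat. The day 11 thalli had received 158.4 kJ/m2 and the day 2 thalli 28.8 kJ/m2. Both groups were irradiated and hydrated, so that the comparison sets prolonged against early exposure. Days of UV-B and days spent wet in the chamber increased together between them and cannot be told apart. The 3 unirradiated day 0 libraries and the 2 day 7 libraries (100.8 kJ/m2) entered the fit to estimate the spread, and their levels are given as further measurements. The series describes its replicates as biological, but the labels do not say whether each came from a separate thallus, so that p-values measure the spread between these samples.

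A lichen thallus is built mostly of fungal filaments that enclose the photosynthetic partners, here a green alga and a cyanobacterium. UV-B damages DNA directly and gives rise to reactive oxygen. Fungi are known to answer it with photolyases and excision repair, antioxidant enzymes, chaperones and pigments, and Lobaria pulmonaria is known to deposit brown melanins in its upper cortex under UV-B. The tables identify transcripts by number only and hold no gene names. None of these functions could therefore be assigned, and transcripts are described here by their level, their size of change and their course.

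Counts assigned to the mycobiont ranged over 8680745 to 11128297 per library at day 11, against 10936832 to 17626099 at day 2. The mycobiont made up 89.5% ± 1.00 of the counts of both eukaryotic partners at day 11 and 89.5% ± 2.35 at day 2 (SD, n = 3 each). The evenness of the counts, given as the number of equally abundant transcripts with the same Shannon entropy, was 3100 ± 393 at day 11 and 3225 ± 331 at day 2. The 10 most abundant transcripts held 7.55% ± 2.26 of the counts at day 11 and 6.95% ± 1.10 at day 2. In a random draw of 8680745 counts, 13027 ± 123 transcripts were expected at day 11 and 13075 ± 49.9 at day 2. None of these 4 measures differed detectably (exact two-sided permutation tests over 20 assignments, p = 0.5 to 1, adjusted p = 1), and 3 libraries against 3 cannot give a p below 0.1. Reads mapped to neither eukaryotic genome made up 14.7%, 16.3% and 11.7% of the kept reads at day 11, against 10.7%, 9.29% and 11.6% at day 2, without overlap. The nearest values were 11.67% in day 11 replicate 3 and 11.59% in day 2 replicate 3. The exact permutation test of this measure, unadjusted, gave p = 0.1, the lowest possible. The part of these reads in the results below was not tested.

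The day 11 libraries differed from the day 2 libraries in 1291 of 12089 tested mycobiont transcripts. This is 10.7% of those tested, at a Benjamini-Hochberg adjusted p under 0.05 in edgeR's quasi-likelihood test with libraries scaled by the trimmed mean of M-values (TMM). At day 11, 493 transcripts were called higher (4.08%) and 798 lower (6.60%) than at day 2, so that 38.2% of the calls were rises. Of the calls, 338 of the 493 higher and 650 of the 798 lower transcripts differed at least 2-fold. The smallest called change was 0.44 on the log2 scale, and the median standard error over all tested transcripts was 0.31. Small changes are thus hard to call, and the sizes of the calls follow in part from the cut. Counts are relative to the fungal total of each library, and fewer cells of a type and less RNA per cell cannot be told apart in whole thalli. The median log2 fold change of all tested transcripts was -0.01.

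At 16-fold and above there were more rises than falls. Of the higher transcripts 169 rose at least 4-fold, 101 at least 8-fold and 68 at least 16-fold. Of the lower ones 263, 100 and 42 fell by at least these folds. The median absolute log2 fold change was 1.43 for the higher set (quartiles 0.88 and 2.67) and 1.56 for the lower set (quartiles 1.11 and 2.26), with a median standard error of 0.30 and 0.32. All 3 day 11 libraries lay on 1 side of all 3 day 2 libraries in 1284 of the 1291 called transcripts, a separation found in 31.9% of all tested transcripts. At an unadjusted p under 0.05 there were 3224 transcripts.

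**Figure D1:**
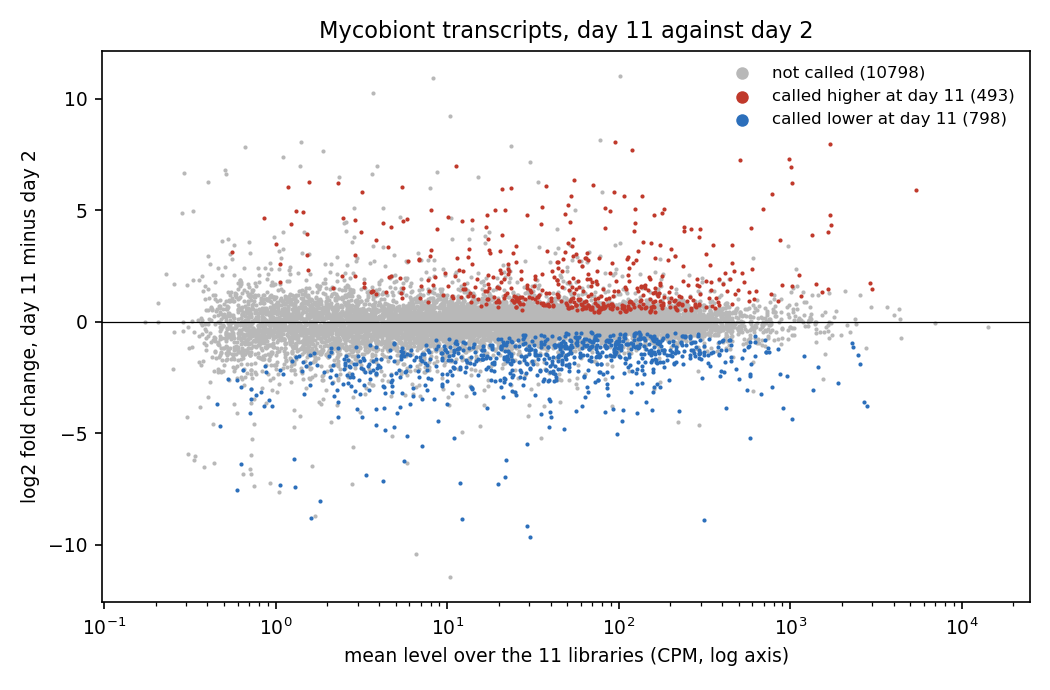
Log2 fold change of day 11 minus day 2 (vertical axis) against the mean level over the 11 libraries in CPM (counts per 1000000 of the TMM-scaled library total, log axis) for 12089 mycobiont transcripts. The 493 transcripts called higher (red) and the 798 called lower (blue) spread over the whole range of levels, and the grey points were not called.

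The number of calls depended on the libraries in the fit. Leaving out day 11 replicate 1, 2 or 3 gave 499, 724 or 940 calls, and leaving out day 2 replicate 1, 2 or 3 gave 731, 1006 or 830. A fit to the 6 libraries of both days alone gave 633, and DESeq2 called 2150. No transcript called here was called in the opposite direction under any of the 23 alternatives, and rises made up 33.2% to 43.1% of the calls.

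Both directions were found at every level of expression. Tested transcripts were ordered by their mean CPM over all 11 libraries and cut into 4 equally large groups. In the scarcest group 1.36% were called higher and 4.30% lower, in the next 3.44% and 6.22%, in the third 4.90% and 7.05%, and in the most abundant group 6.62% and 8.83%. The median absolute log2 fold change of the calls was 2.36 in the scarcest group, 1.69 and 1.29 in the next ones and 1.35 in the most abundant group. The scarcest group had at most 5.56 CPM, where few counts make small changes hard to call. Shares and sizes of calls are therefore not directly comparable between the groups. Among the 100 most abundant transcripts, with a mean of at least 1009 CPM, 16 were called higher and 11 lower, and the median size of these changes was 2.10 on the log2 scale. This mean includes the day 11 and day 2 libraries. A high level on 1 of these days can therefore place a transcript among the 100, which raises both values. The set of dominant transcripts was also partly exchanged. The 100 most abundant transcripts of day 11 and of day 2 had 57 in common. Of the 43 found in the day 11 list alone, 20 were called higher, and of the 43 found in the day 2 list alone, 21 were called lower. The lists rank the same levels that the calls compare, so that these directions follow from the choice. The day 11 list had 80 in common with that of day 7, although 0 transcripts were called between those days, and 51 with that of day 0.

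A sizeable part of the fungal messenger RNA was involved. The 493 higher transcripts held 15.6%, 12.4% and 11.4% of the tested counts in the day 11 libraries, against 2.90%, 3.85% and 3.66% in the day 2 libraries. The 798 lower transcripts held 4.06%, 4.57% and 5.54% at day 11, against 16.0%, 13.8% and 13.8% at day 2. Neither set overlapped between the days, which follows from how the sets were chosen. The day 0 and day 7 libraries are on neither side of that comparison, although they entered the estimate of the spread behind the calls. In them the higher set held 3.88%, 4.19% and 4.08% at day 0 and 12.0% and 14.4% at day 7. The lower set held 13.6%, 12.3% and 12.9% at day 0 and 5.40% and 5.09% at day 7. Day 0 thus lay beside day 2, and day 7 beside day 11, in both sets. The sets were chosen to differ between day 11 and day 2, so that they do not show days 0 and 2 to be alike. Over all tested transcripts, 1579 were called between day 2 and day 0.

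**Figure D2:**
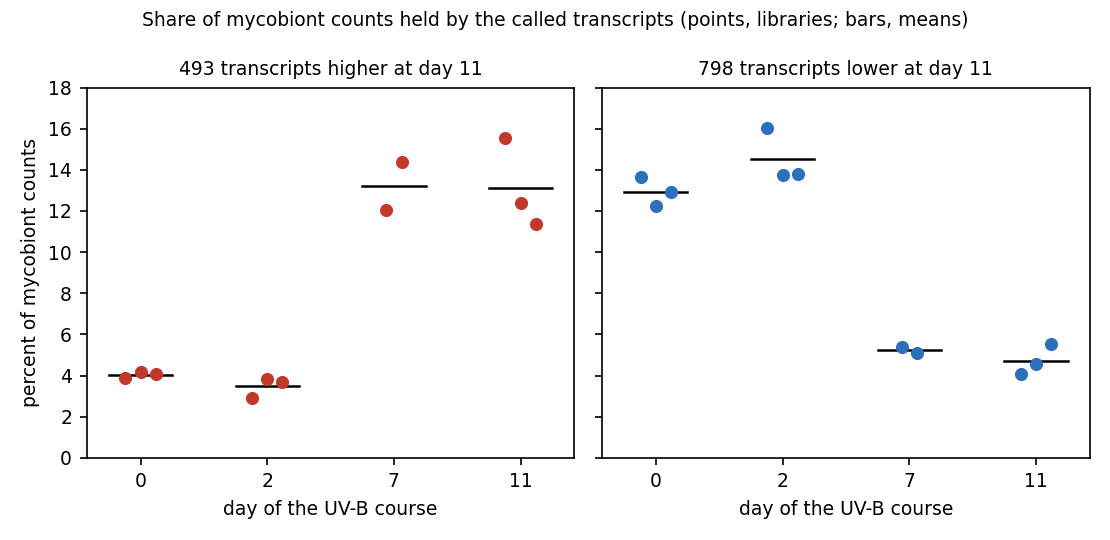
Percent of the tested mycobiont counts (vertical axis) held by the 493 transcripts called higher (left) and the 798 called lower (right) at day 11 than at day 2, by day of the course. Points are libraries and bars are means: the higher set lies at 2.90% to 4.19% on days 0 and 2 and at 11.4% to 15.6% on days 7 and 11, and the lower set at 12.3% to 16.0% and at 4.06% to 5.54%.

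The change was concentrated in fewer transcripts among the rises than among the falls. Of the summed CPM gained by the higher set, 50% came from 18 transcripts and 39.4% from 10. Of the CPM lost by the lower set, 50% came from 40 transcripts and 27.3% from 10. The sets also differed in size, with 493 higher and 798 lower transcripts. The summed gain was 107869 CPM and includes transcript 1163291, described below. Its mean was 251 CPM at day 2 and 14936 CPM at day 11 (SD 9017), so that the concentration among the rises depends in part on this variable transcript. A mean gain of at least 100 CPM was found in 163 higher transcripts, and a mean loss of at least 100 CPM in 214 lower ones.

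The same direction was seen in libraries that the comparison had not used. Day 7 and day 0 share no library with day 11 and day 2, although all enter the fit that estimates the spread. Day 7 minus day 0 sets 100.8 kJ/m2 of UV-B against none. It is therefore another contrast than that of prolonged with early exposure. Of the 493 transcripts higher at day 11 than at day 2, 283 (57.4%) passed the test as higher at day 7 than at day 0 too, and 3 as lower. Among all tested transcripts 9.65% were called higher at day 7 than at day 0. Of the 798 lower transcripts, 358 (44.9%) were also called lower at day 7 than at day 0, where 7.86% of all tested were, and 36 were called higher. Seen from the other list, the 283 are 24.3% of the 1166 transcripts higher at day 7 than at day 0, and the 358 are 37.7% of the 950 lower ones. The median log2 fold change of day 7 minus day 0 was 1.11 in the higher set and -1.08 in the lower set, against -0.02 over all tested transcripts.

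Larger changes between day 11 and day 2 went with larger ones between day 7 and day 0. In the higher set the median of day 7 minus day 0 was 0.56 for transcripts under 2-fold, 1.08 for those between 2- and 4-fold and 3.13 for those of 4-fold or more. In the lower set these medians were -0.32, -0.99 and -2.05. Across the 1291 called transcripts the log2 fold changes of both comparisons had a Pearson r of 0.727 and a Spearman rho of 0.788, and across all 12089 an r of 0.342 and a rho of 0.438. These describe transcripts measured in the same libraries, which are not independent replicates. The calls leave out small changes between day 11 and day 2, which can raise the correlation across the 1291.

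With separate fits for each pair of days, so that nothing was shared, 130 of 244 higher (53.3%) and 179 of 389 lower transcripts (46.0%) were called in the same direction at day 7 against day 0, where 7.02% of all tested were called higher and 7.54% lower. Under each of the 23 alternatives the share of the higher set called higher at day 7, and of the lower set called lower, exceeded that among all tested transcripts. When libraries were scaled by their totals, day 7 minus day 0 had a median of -0.35 (log2) over all transcripts. The shared calls were then 184 of 398 higher (46.2%) and 456 of 799 lower (57.1%), against 4.43% and 14.0% of all tested. Without day 7 replicate 1 there were 204 of 461 higher (44.3%) and 146 of 725 lower (20.1%), against 5.32% and 2.55% of all tested. Without day 7 replicate 2 there were 136 of 462 (29.4%) and 87 of 727 (12.0%), against 3.17% and 1.503% of all tested. Each of these leaves a lone day 7 library that is assumed to vary like the others, and fewer calls among all transcripts. Without day 0 replicate 2 there were 175 of 386 and 209 of 622, against 4.99% and 4.58% of all tested, and without day 0 replicate 3, 188 of 486 and 267 of 717, against 5.34% and 5.61%. Without day 11 replicate 1 there were 144 of 207 and 172 of 292, without day 11 replicate 2, 207 of 312 and 226 of 412, and without day 2 replicate 1, 164 of 246 and 248 of 485. In these 3 cases 8.91% to 10.8% of all tested were called higher and 7.44% to 8.81% lower.

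**Figure D3:**
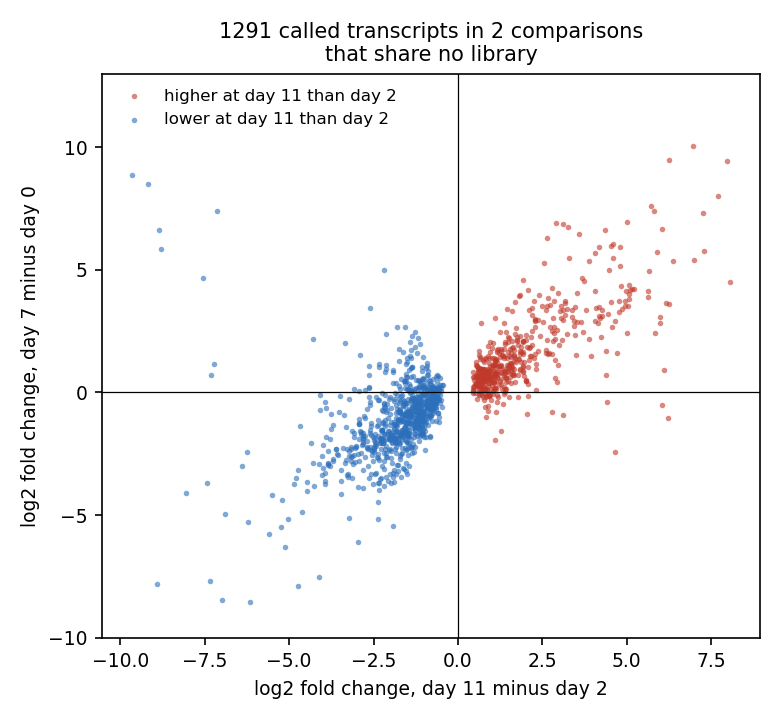
Log2 fold change of day 7 minus day 0 (vertical axis) against that of day 11 minus day 2 (horizontal axis) for the 1291 called mycobiont transcripts, 493 higher (red) and 798 lower (blue). Most points lie in the lower left and upper right, with medians of day 7 minus day 0 of 1.11 and -1.08, and a small number of strongly lower transcripts lie at the upper left.

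The called transcripts were divided by their call between day 7 and day 0, and their levels are given for the 4 days. The 283 that rose in both comparisons had median levels of 36.4, 39.0, 142 and 142 CPM on days 0, 2, 7 and 11. The 207 higher transcripts without a call between day 7 and day 0 had medians of 33.2, 21.0, 41.5 and 52.6 CPM on these days. Among the lower transcripts, the 358 that fell in both comparisons had medians of 50.2, 42.5, 12.6 and 9.40 CPM. The 404 without a call between day 7 and day 0 had 50.2, 84.6, 35.5 and 32.5 CPM. The 36 that were lower at day 11 than at day 2 but higher at day 7 than at day 0 had 43.4, 280.1, 102 and 123 CPM. Levels of all 4 days took part in choosing these groups, by the calls of both comparisons, so that the medians describe them and test nothing.

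**Figure D4:**
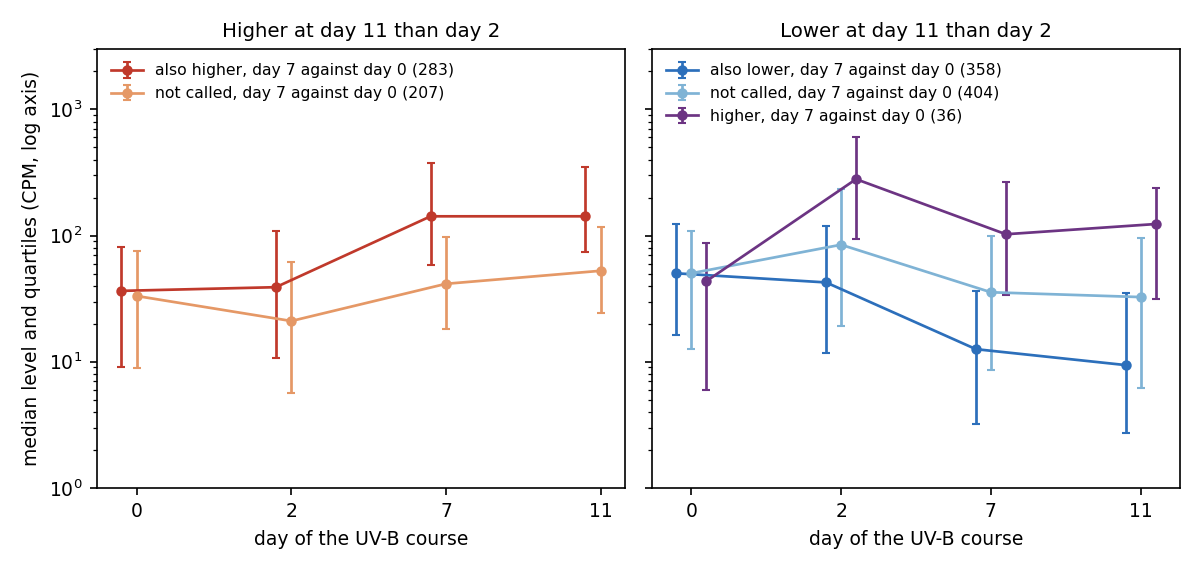
Median level of called mycobiont transcripts with quartiles (CPM, log axis) by day, for transcripts higher (left) and lower (right) at day 11 than at day 2, divided by their call between day 7 and day 0. The groups were chosen by the calls of both comparisons: the 283 transcripts higher in both have medians of 39.0 CPM at day 2 and 142 at day 7, the 358 lower in both 42.5 and 12.6, and the 36 in purple 280.1 and 102; the 3 transcripts higher at day 11 and lower at day 7 are left out.

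Levels of the called transcripts at day 7 lay close to those at day 11. The higher set had a median log2 fold change of 1.43 for day 11 minus day 2, 1.21 for day 7 minus day 2 and 0.13 for day 11 minus day 7. The lower set had -1.56, -1.40 and -0.18. Over all tested transcripts, the same test called 0 for day 11 against day 7 and 673 for day 7 against day 2, with only 2 day 7 libraries. It called 1579 for day 2 against day 0 and 3504 for day 11 against day 0. For day 2 minus day 0 the medians were -0.13 in the higher and 0.23 in the lower set, and for day 11 minus day 0 they were 1.36 and -1.31. These comparisons share libraries with that of day 11 and day 2, so that their values are given side by side only. Correlations of log2(CPM + 1) across transcripts were 0.948 to 0.959 between day 11 libraries, 0.945 to 0.952 between day 2 libraries and 0.877 to 0.934 between the 2 days. Those of day 11 with day 7 libraries were 0.949 to 0.952, and those of day 7 with day 2 libraries 0.891 to 0.947. The highest of the last group, 0.947, was that of day 7 replicate 2 with day 2 replicate 2. Correlations of day 2 with day 0 libraries were 0.897 to 0.935.

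Replicates spread to a similar extent on both days. The biological coefficient of variation was 0.389 within the day 11 libraries and 0.434 within the day 2 libraries. Over 3 libraries the levels of the called transcripts spanned a median of 0.54 in log2(CPM + 1) at day 11 and 0.63 at day 2. Called transcripts whose 3 libraries spanned 3 or more on this scale were 20 at day 11 and 4 at day 2.

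Transcript 1163291 was the most abundant of the 458 higher transcripts that qualified for naming. These had a mean of 50 or more counts over the 6 libraries and day 11 libraries all above those of day 2. It had 13271, 24669.5 and 6868 CPM in the day 11 libraries, against 79.3, 94.3 and 579.7 CPM in the day 2 libraries. The days did not overlap, although the day 11 libraries differed among themselves and day 2 replicate 3 stood above the other two. It had 187, 96.3 and 110.2 CPM at day 0 and 6322 and 7413 CPM at day 7. Day 11 minus day 2 gave a log2 fold change of 5.89 (SE 0.92, edgeR adjusted p = 0.00642), and the call held under all 23 alternatives. It had rank 2 among the tested transcripts by mean level at day 11 and rank 911 at day 2. In the day 7 and day 0 libraries it rose by 5.71 on the log2 scale (SE 0.94, edgeR adjusted p = 0.00585).

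Transcript 1239084 had the largest rise of the qualifying transcripts. It had 247, 275 and 185 CPM in the day 11 libraries, against 1.16, 0.751 and 0.786 CPM in the day 2 libraries, where 9 to 13 counts stand behind each value. Day 0 libraries had 4.13, 5.81 and 10.6 CPM, above all day 2 libraries. The day 7 libraries were divided, with 312 CPM in replicate 1 and 0.830 CPM in replicate 2. The log2 fold change of day 11 minus day 2 was 8.05 (SE 1.65, edgeR adjusted p = 0.0180). That call was lost without day 2 replicate 1, 2 or 3 (edgeR adjusted p = 0.0609, 0.0562 and 0.0580) and with limma voom (adjusted p = 0.0700), in a range of 1.6e-08 to 0.0700 over the alternatives. In the day 7 and day 0 libraries the log2 fold change of day 7 minus day 0 was 4.52 (SE 1.40, edgeR adjusted p = 0.0550).

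Transcript 1261034 was the most abundant of the 674 lower transcripts that qualified. It had 1890.2, 1937 and 1742 CPM in the day 11 libraries, against 4955 (replicate 1), 4462 (replicate 2) and 6358 CPM (replicate 3) in the day 2 libraries. Replicates lay close together at day 11 (SD 102 CPM) and less so at day 2 (SD 984 CPM), and the days did not overlap. Its day 0 libraries had 728, 575 and 861 CPM and its day 7 libraries 1958 and 1919 CPM. The log2 fold change of day 11 minus day 2 was -1.50 (SE 0.24, edgeR adjusted p = 0.00653), and the call held under all 23 alternatives. In the day 7 and day 0 libraries it was higher at day 7 (log2 fold change 1.43, SE 0.26, edgeR adjusted p = 0.00740). All 3 day 11 libraries also lay above all 3 day 0 libraries. By mean level it had rank 46 at day 11, rank 5 at day 2 and rank 90 at day 0.

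Transcript 553795 had the largest fall of the qualifying transcripts. It had 2, 0 and 1 counts in the day 11 libraries, against 1075, 1632 and 878 counts in the day 2 libraries, the last 3 being 113, 94.3 and 76.7 CPM. Day 0 libraries had 0, 2 and 0 counts, and the day 7 libraries were divided, with 2 counts in replicate 1 and 492 in replicate 2. The summed counts gave a ratio of day 11 to day 2 of 0.00116, with an exact 95% interval of 0.00024 to 0.00340 that covers counting error only. The fitted difference was -9.64 on the log2 scale (SE 1.76, edgeR adjusted p = 0.0117), whose size depends on so few counts at day 11. That call was lost without day 11 replicate 1 (edgeR adjusted p = 0.0508) and with limma voom (adjusted p = 0.0636), in a range of 1.4e-06 to 0.0636 over the alternatives. It was called higher at day 7 than at day 0 (log2 fold change 8.88, SE 1.82, edgeR adjusted p = 0.0133), with day 7 replicate 2 alone above the day 0 libraries in more than a few counts.

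**Figure D5:**
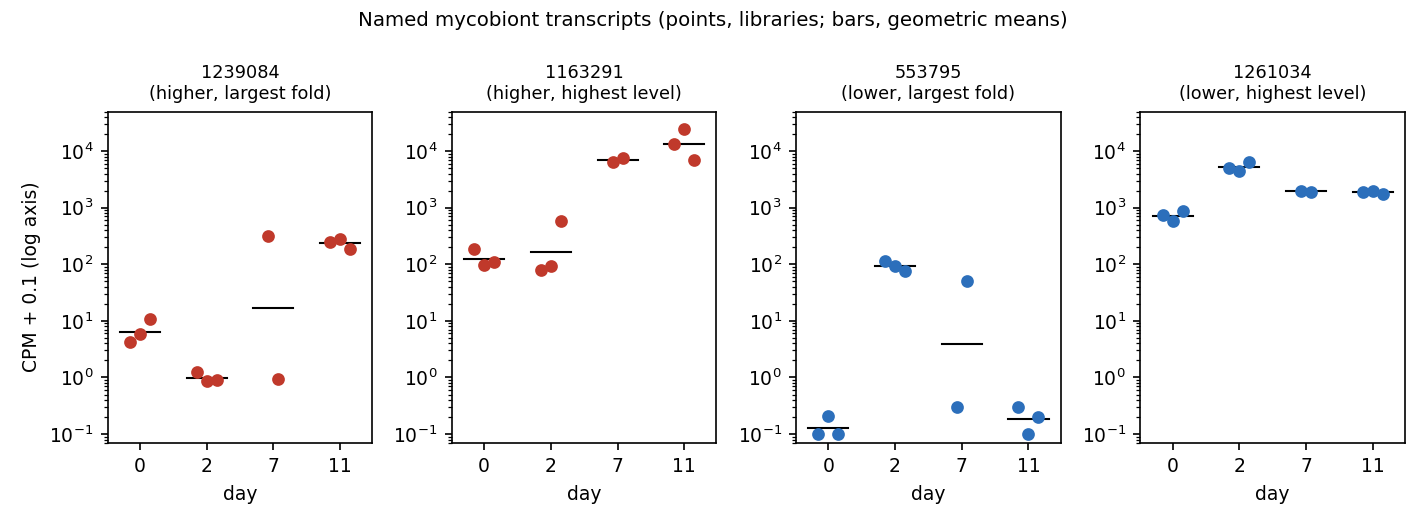
Levels of the 4 named mycobiont transcripts in each library (CPM + 0.1, log axis) by day of the course, the 2 higher ones in red and the 2 lower ones in blue; bars are geometric means. Transcripts 1163291 and 1261034 separate day 11 from day 2 and have similar levels in the 2 day 7 libraries, whereas 1239084 and 553795 differ between the 2 day 7 libraries, with 312 against 0.830 CPM and 0.204 against 51.0 CPM.

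Loss of a transcript from detection was rare among the calls. Only 7 called transcripts had at most 3 counts in every day 11 library and at least 30 in every day 2 library, and 1 had the reverse pattern. Of the 7, 3 had at least 30 counts in all 3 day 0 libraries and 4 had at most 3 in all of them. In day 7 replicate 1, 2 of the 7 had at least 30 counts, and in day 7 replicate 2, 5 had. Presence of these few transcripts thus differed between libraries of 1 day.

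In the algal partner of the same thalli, the same test of day 11 against day 2 called 188 of 9862 transcripts (1.91%), of which 111 were higher and 77 lower. At an unadjusted p under 0.05 in this test there were 1886 algal transcripts. Algal counts ran from 938418 to 2677845 per library on these 2 days, against 8680745 to 17626099 for the mycobiont, so that the shares called are not directly comparable. The count of 188 algal calls rested on single libraries. Leaving out day 11 replicate 1, 2 or 3 gave 1, 13 or 116 algal calls, and leaving out day 2 replicate 1, 2 or 3 gave 15, 5 or 343. Leaving out day 7 replicate 1 or 2 gave 120 or 118, and leaving out day 0 replicate 3 together with day 2 replicate 1 gave 41. DESeq2 called 562. Under the same omissions of day 11 and day 2 libraries the mycobiont had 499 to 1006 calls. Whether the partners differ was not tested.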

How the data were processed

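Per the submitters' processing notes, the tools were Trimmomatic 0.39 and FastQC 0.11.8 for the reads, HISAT2, and HTSeq 0.5.4 with edgeR. What these notes do not name (genome builds, gene models, the strand setting) was not given in the sources used here. Overlapping and near-identical transcripts therefore remain uncertain. The deposited tables hold raw counts per transcript and library. A deposited table of mapped reads also gives, per the file headers, read counts and the fraction of kept reads that each partner makes up, and shares were computed from its read counts.

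Counts were tested in R 4.3.3 with edgeR 4.0.16 (TMM, default expression filter by day, robust quasi-likelihood fit over all 11 libraries), adjusted over all tested transcripts. Of 15607 mycobiont transcripts, 12089 passed the filter. CPM values are TMM-scaled. The standard error is the absolute log2 fold change divided by the square root of F. Alternatives used DESeq2 1.42.0 and limma 3.58.1. Permutation tests used Python 3.11.15.

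Named transcripts are those with the largest fold change and with the highest mean CPM in each direction, among calls with a mean of 50 counts and separate days. The comparison, the subsets and this rule were chosen with earlier results of these data known. No replicate pair agreed within sampling noise (chi-square per degree of freedom 56.0 to 128).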

Additional observations from a re-analysis of the deposited data

Results flagged for a closer look

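Reads that mapped to neither eukaryotic genome lie outside the count tables. They made up 14.7% of the kept reads in day 11 replicate 1 and 16.3% in day 11 replicate 2, above the highest of the unirradiated day 0 libraries (14.0%). Day 11 replicate 3 had 11.7%.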

How the results depend on the processing

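Counts of calls between day 11 and day 2 moved most with the tool and the libraries used. With DESeq2, 2150 mycobiont transcripts were called (925 higher and 1225 lower), 490 and 577 of them also called in the same direction for day 7 against day 0, and 562 photobiont transcripts. With only the libraries of the days compared there were 633 (244 and 389), with 130 and 179 shared. With library totals 184 shared rises were left, and limma voom called 107 photobiont transcripts. Omitting day 2 replicate 2 with day 7 replicate 2 left 101 rises and 63 falls shared, and omitting day 0 replicate 3 with day 2 replicate 1 left 41 photobiont calls. When 1 of the 11 libraries was left out, the mycobiont count ran from 499 to 1203 (207 to 486 higher and 292 to 727 lower), the shared calls from 136 to 239 and from 87 to 298, and the photobiont count from 1 to 343. Thinning every library to the smallest total, chosen after seeing the data, left 1256 mycobiont calls.

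Same-numbered replicates of day 11 and day 2 are not stated to be paired, and their deviations from the day means correlated at -0.0961, 0.115 and 0.0361. A fit with the replicate number as a block called 822 mycobiont transcripts (307 higher and 515 lower), with 156 and 198 shared, and 14 photobiont transcripts. Not every library correlated best with its own number.

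Differences between the days in the library measures changed sign: for the mycobiont share in percentage points, 0.0323 by mapped reads and -1.36 to 0.769 with 1 library left out. With 1 left out, the evenness of the counts, as a number of transcripts, differed by -334 to 58.3, the share of the 10 most abundant transcripts by -0.536 to 1.73 percentage points and the transcripts expected in a draw by -114 to 7.97. The causes of all these movements were not tested. Depth limits the scarcest transcripts most, where few counts stand behind a fold change.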
